A study of Mus musculus with 6 samples.

Results

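The genes of the DNA replication machinery were followed by complex in neural stem cells (NSCs), dividing progenitors from which neurons and glia arise. The 57 genes were taken by symbol from a table of 53378 genes with values in all libraries. They fall into 10 groups by role, from the proteins that mark and license origins to those that protect the moving fork. All 57 passed the filter on low values, a mean normalized count of at least 10, which left 14840 genes for testing.

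NSCs were derived from the cortex of mouse embryos at E14.5 that carried *Tbl1xr1* flox/flox alleles, with LoxP sites on both sides of exon 5. They were grown as neurospheres with bFGF and EGF. Both groups had the same floxed genotype and both received a lentivirus and were sorted for GFP, the first with GFP only (control, replicates 1, 1_1 and 2) and the other with Cre-GFP, whose recombinase removes the floxed exon (KO, replicates 2, 2_2 and 3). The labels give neither strain, sex nor the number of embryos behind a culture, and nothing tells if replicate 1_1 shares a culture with 1, or 2_2 with 2, so that p-values measure only the spread between these libraries. The mRNA of *Tbl1xr1* itself was not lower in the libraries labelled Cre. Here and throughout, per-library values are in the order 1, 1_1, 2 for control and 2, 2_2, 3 for KO. It had 2521.8, 2189.8 and 2720.6 normalized counts in control and 3774.4, 3463.4 and 2905.5 in KO (log2 fold change 0.45, standard error 0.14, limma adjusted p = 0.06). Counts over the whole gene do not measure exon 5 on its own. The paper reports that the sorted cells had the right genotype and lacked *Tbl1xr1* mRNA and protein. Those checks were not analysed here, and the counts over the whole gene do not show the reported loss of mRNA. KO below therefore means the libraries labelled Cre.

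A cell copies its genome once per cycle. In G1 the origin recognition complex (ORC), with CDC6 and CDT1, loads the ring-shaped MCM helicase onto origins. In S phase the kinase CDC7-DBF4 (DDK), with CDC45 and the GINS complex, turns the loaded ring into an active helicase. Polymerase alpha with primase then lays down primers, polymerase epsilon copies the leading strand and polymerase delta the lagging strand, on a sliding clamp (PCNA) that the RFC complex loads. Many of these genes are transcribed most at the entry into S phase under the control of E2F factors, and in the embryonic cortex they are abundant in dividing progenitors.

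Values are normalized counts, the reads of a gene scaled by a size factor for each library. Fold changes compare log2(normalized count + 1) of KO with control, a scale on which changes of low genes come out too small. The libraries held between 7510615 and 14828100 reads on genes, with a median of 7762821 in control and 12210170 in KO, so that the KO libraries were the deeper ones. The fewest reads of a member in any library were 32, for *Pole2*. In RNA from whole cultures, fewer cells in S phase and less RNA per cell cannot be told apart.

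Because many replication genes are known E2F targets, the RefSeq promoters of the members (GRCm38.p6, from 250 bases before to 50 after the transcription start) were searched on both strands for the words TTTCCCGC, TTTGGCGC, TTTGCCGC and TTTCGCGC. A promoter sequence was at hand for 48 of the 57 members. The *Mcm5* promoter is shown because its gene had the smallest adjusted p-value of the members with a promoter, and that of *Chaf1b* because its gene had the largest. Each is 180 bases of the gene's own strand, and capitals mark the searched words. In *Mcm5* a TTTCGCGC and, on the other strand, a TTTGGCGC overlap. In *Chaf1b* none of the words was found.
Mcm5 (chr8:75109329-75109508, + strand): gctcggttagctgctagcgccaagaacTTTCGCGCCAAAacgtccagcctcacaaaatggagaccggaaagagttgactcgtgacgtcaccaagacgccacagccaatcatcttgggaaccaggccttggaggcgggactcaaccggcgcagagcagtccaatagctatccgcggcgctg
Chaf1b (chr16:93883721-93883900, + strand): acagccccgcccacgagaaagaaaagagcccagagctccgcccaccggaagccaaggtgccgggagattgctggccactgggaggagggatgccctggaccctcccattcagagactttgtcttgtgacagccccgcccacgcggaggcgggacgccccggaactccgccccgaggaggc

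The words in the other members that were lower in KO are shown in windows of 28 bases, on the gene's strand, again in capitals. Their length and letters were set by the search, and they are shown for their place and surroundings. *Mcm7* holds 2 of them, on either side of its start, and of the 2 in *Mcm3* the first is shown.
Cdc6 (chr11:98908003-98908030, + strand): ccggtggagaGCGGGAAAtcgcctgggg
Cdt1 (chr8:122568037-122568064, + strand): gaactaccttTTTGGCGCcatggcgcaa
Mcm3 (chr1:20820276-20820303, - strand): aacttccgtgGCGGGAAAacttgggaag
Mcm7 (chr5:138172031-138172058, - strand): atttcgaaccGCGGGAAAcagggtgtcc
Mcm7 (chr5:138171850-138171877, - strand): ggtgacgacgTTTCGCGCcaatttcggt
Pold1 (chr7:44548766-44548793, - strand): cggcggcgtatcttgtgGCGGGAAAagc
Pold3 (chr7:100121468-100121495, - strand): agcgaagctgTTTCCCGCcggcgggagc
Lig1 (chr7:13278842-13278869, + strand): gccaaagtgcGCGCGAAAtctgtgtggc
Clspn (chr4:126556991-126557018, + strand): ccgcgtctggGCGCGAAAgctcgaactt

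Replication genes were lower in KO, with at least 1 gene past the threshold in 9 of the 10 groups. At a limma adjusted p-value under 0.05, 21 of the 57 members fell (36.8%, against 5.22% of all tested genes) and 0 rose (against 4.74%). With no adjustment (limma p under 0.05) there were 39 lower and 0 higher, against 1965 and 1813 of the 14840 tested genes. Both edgeR and DESeq2 on the recovered reads also called 0 members higher. The fold change was below 0 for 53 members, and the median log2 fold change was -0.47, a decrease of 28%, against -0.00 for all tested genes. For 40 members every KO library lay below every control library (70.2%, against 15.5% of all tested genes), and for 0 members every KO library lay above (against 14.7%). A further 11 members had an adjusted p-value between 0.05 and 0.1. The counts of each complex given below stand beside these same shares of all tested genes, and no complex was tested as a set.

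The count of 21 depended on single libraries. Without control replicate 1 it was 6, without control replicate 1_1 it was 11 and without control replicate 2 it was 9. Without KO replicate 2_2 it was 9, while without KO replicate 2 it was 30. With control 1 and 1_1 averaged as 1 sample it was 10, and with both numbered pairs averaged 12. The share of all tested genes called lower moved as well. From 5.22% it went to 1.68%, 2.3%, 1.99%, 2.68%, 8.14%, 2.08% and 2.92% in these settings, in the same order. The direction did not rest on a library: the median over the members ran from -0.52 to -0.45 with 1 library left out. Taken library by library, as the difference from the control mean, the members' median was 0.05, -0.01 and -0.04 in control and -0.39, -0.49 and -0.56 in KO. Each KO library was thus low on its own.

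**Figure D1:**
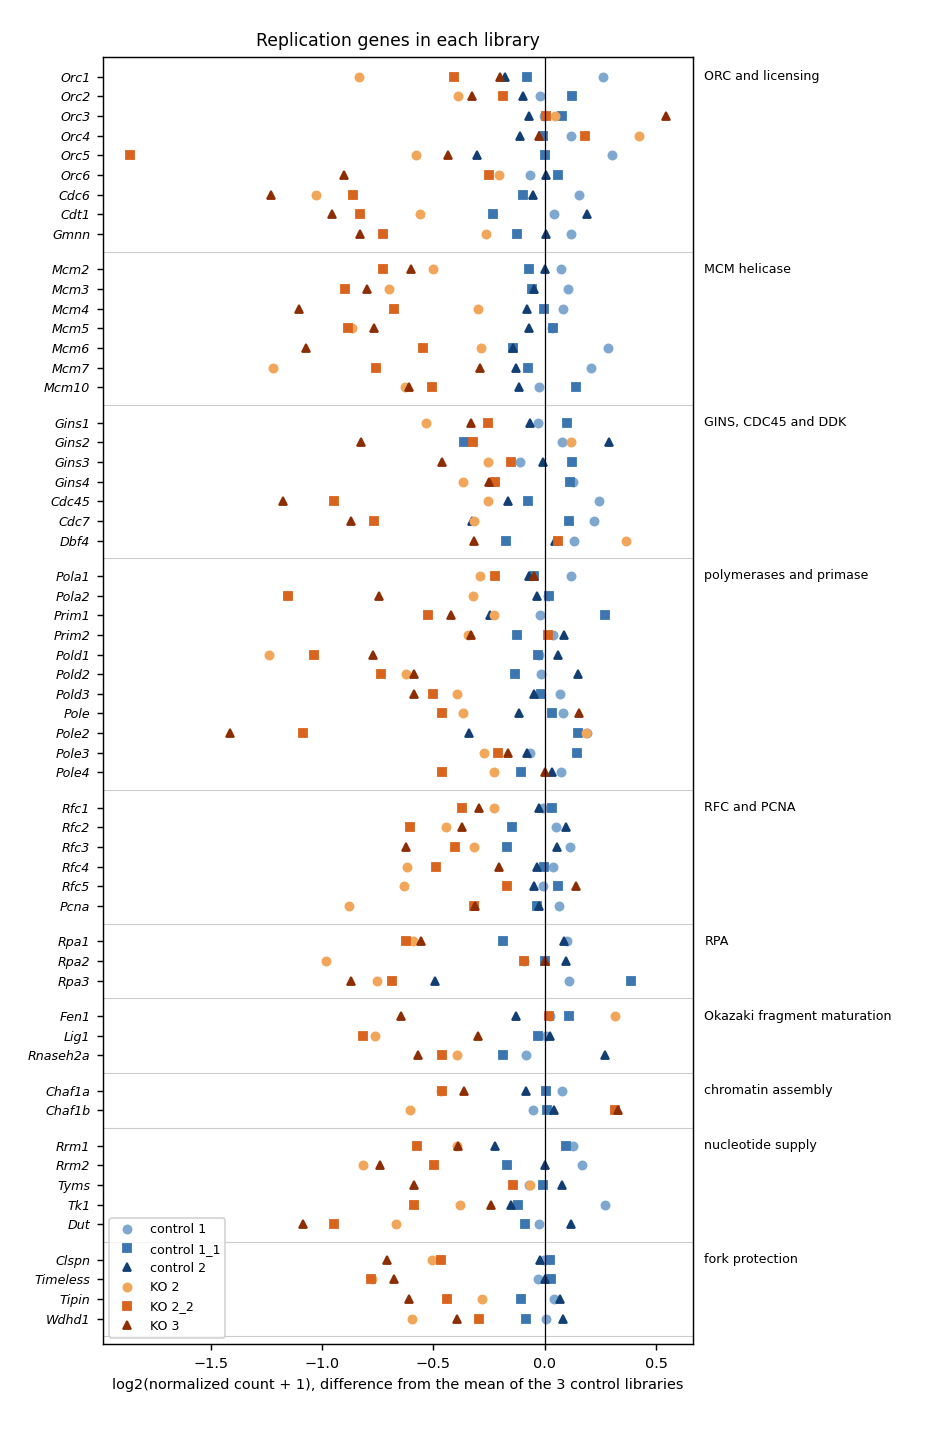
Every member in every library, by complex, as the difference in log2(normalized count + 1) from the mean of the 3 control libraries (x axis). Blue points are the control libraries and orange to brown points the KO libraries. In 40 of the 57 rows all KO points lie to the left of all control points.

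Of the genes for origin recognition and licensing, 3 of 9 fell, *Cdc6*, *Cdt1* and *Gmnn*. *Cdc6*, which with CDT1 brings the helicase to the origin, had 291.8, 244.3 and 252.1 normalized counts in control and 128.1, 143.8 and 111.0 in KO. The highest KO value was well below the lowest control value, and the mean fell from 262.7 ± 25.5 (SD, n = 3) to 127.6 ± 16.4 (SD, n = 3). Its change, -1.04 in log2 (standard error 0.17, limma adjusted p = 0.00366), was the most negative of all members. *Cdt1*, its partner, had 410.2, 339.4 and 454.8 in control and 270.1, 223.8 and 205.0 in KO, also without overlap (log2 fold change -0.78, limma adjusted p = 0.0135). *Gmnn* encodes geminin, which holds CDT1 inactive after origins have fired, and fell as well (log2 fold change -0.61, limma adjusted p = 0.0497), but passed in only 6 of the 17 alternative fits.

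None of the 6 ORC subunits, which mark origins, passed the threshold, and 3 of them had an unadjusted p-value under 0.05 (0 were called by edgeR and by DESeq2). Their log2 fold changes were spread from -0.96 for *Orc5* to 0.20 for *Orc3*. *Orc5* was uneven in KO. Its KO values were 76.9, 31.0 and 85.1 and its control values 142.2, 115.6 and 93.4 (limma adjusted p = 0.107). It did not overlap between the groups, and without KO replicate 2_2 the log2 fold change was -0.51. *Orc6* had a log2 fold change of -0.45, *Orc1*, a subunit made in a cell cycle dependent way, of -0.48, and *Orc2* of -0.30, all without overlap and with adjusted p-values of 0.145, 0.266 and 0.146 (limma). *Orc3* and *Orc4* lay above 0, at 0.20 and 0.19, with overlapping groups and adjusted p-values of 0.498 and 0.508 (limma).

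The MCM helicase genes were the group with the most calls. *Mcm2*, *Mcm3*, *Mcm4*, *Mcm5* and *Mcm7*, subunits of the ring, and *Mcm10*, which helps to start the assembled helicase, all fell. The sixth ring subunit, *Mcm6*, had a log2 fold change of -0.63 and a limma adjusted p of 0.0649. The median over the 7 genes was -0.69. In all 7 every KO library lay below every control library, against 15.5% of all tested genes.

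*Mcm5* had 1037.9, 1040.0 and 966.9 normalized counts in control and 556.1, 549.2 and 595.4 in KO. The libraries of each group were close together, and the mean fell from 1014.9 ± 41.6 (SD, n = 3) to 566.9 ± 24.9 (SD, n = 3), with -0.84 as log2 fold change (standard error 0.12, limma adjusted p = 0.00138). *Mcm3* went from 2896.2, 2590.6 and 2601.9 in control to 1660.0, 1445.4 and 1547.2 in KO (log2 fold change -0.80, standard error 0.11, limma adjusted p = 0.0018). Both passed in all 17 alternative fits.

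The rest of the ring was less even among the KO libraries. *Mcm7* had 4001.1, 3294.2 and 3170.1 in control and 1491.1, 2048.9 and 2837.4 in KO (log2 fold change -0.76, limma adjusted p = 0.0371), so that replicate 3 came near the lowest control library. *Mcm4* had 645.1, 608.5 and 577.5 in control and 494.5, 381.4 and 282.9 in KO (log2 fold change -0.69, limma adjusted p = 0.0375), and *Mcm6* had 1096.6, 814.8 and 814.9 in control and 737.6, 615.5 and 428.0 in KO. Here the order of the KO libraries was the opposite of that of *Mcm7*, with replicate 3 lowest. *Mcm2* (log2 fold change -0.61, limma adjusted p = 0.012) and *Mcm10* (-0.58, adjusted p = 0.0188) were more even, from 396.0 to 463.3 and from 338.7 to 369.3 in KO. The ring calls were among those that depended on single libraries, with 2 of the 7 genes called when control replicate 1 or KO replicate 2_2 was left out.

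**Figure D2:**
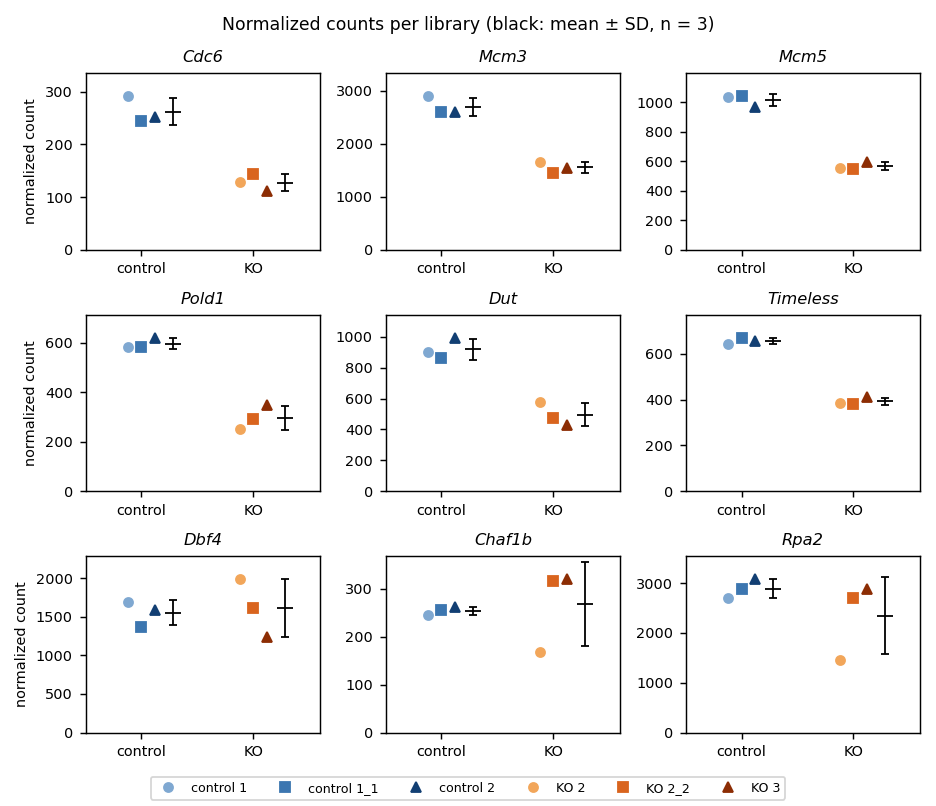
Normalized counts (y axis, from 0) in each library for the 6 members that passed in all 17 alternative fits (Cdc6, Mcm3, Mcm5, Pold1, Dut, Timeless) and for Dbf4, Chaf1b and Rpa2, chosen after their values were seen because of their spread in KO. Black marks give the mean and SD of 3 libraries. In the 6 the groups are apart. The KO libraries of Dbf4 and Chaf1b lie on both sides of the control values, and in Rpa2 KO replicate 2 lies far below them.

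Of the genes that turn the loaded ring into an active helicase, 0 of 7 passed the threshold with limma, 3 had an unadjusted p-value under 0.05, and edgeR called 0 and DESeq2 2. The largest changes were in *Cdc45*, the helicase cofactor, and *Cdc7*, the kinase subunit of DDK. *Cdc45* had 243.2, 194.6 and 182.7 in control and 171.8, 105.9 and 90.4 in KO, without overlap (log2 fold change -0.79, limma adjusted p = 0.0583). *Cdc7* had 277.1, 256.0 and 189.4 in control and 190.4, 139.5 and 129.8 in KO, with the highest KO value just above the lowest control value (log2 fold change -0.65, limma adjusted p = 0.0671).

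*Dbf4*, the regulatory subunit that activates CDC7, had 1691.3, 1372.1 and 1595.0 in control and 1989.7, 1609.9 and 1241.9 in KO, so that the KO libraries held both the highest and the lowest of the 6 values (log2 fold change 0.03, 95% interval -0.33 to 0.40, limma adjusted p = 0.922). Its sign changed with the library left out. The 4 GINS subunits had log2 fold changes between -0.37 for *Gins1* and -0.28 for *Gins4*. The value of *Gins2* cannot be assigned to the gene: 67.3% of its exon bases are shared with *Gse1* on the other strand (GENCODE M1, mm9), and the recovered reads of the pair were nearly the same in every library, 1432 and 1425 in control replicate 1 and 785 and 816 in KO replicate 3.

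Among the polymerases, *Pold1*, *Pold2* and *Pold3* of polymerase delta fell, and 0 of 4 genes of polymerase alpha and primase and 0 of 4 of polymerase epsilon passed the threshold. At an unadjusted p-value under 0.05 these last counts were 2 and 0, and edgeR and DESeq2 called 0 in both. Whether the complexes differ from each other was not tested. *Pold1*, the catalytic subunit of polymerase delta, had 585.5, 585.1 and 621.5 normalized counts in control and 252.8, 291.0 and 349.2 in KO. It fell from 597.4 ± 20.9 (SD, n = 3) to 297.7 ± 48.6 (SD, n = 3), with -1.01 as log2 fold change (standard error 0.15, limma adjusted p = 0.00193), in all 17 alternative fits. *Pold2* and *Pold3*, accessory subunits, had log2 fold changes of -0.65 and -0.49 with adjusted p-values of 0.00914 and 0.0346 (limma), called in 15 and 10 of the 17 alternative fits. The remaining tested subunit of polymerase delta, *Pold4*, which is not among the 57 genes and was named after its value was seen, had -0.07 (limma adjusted p = 0.898).

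For polymerase alpha, which with primase starts every new strand, the catalytic *Pola1* had a log2 fold change of -0.19 (limma adjusted p = 0.358) and the subunit *Pola2* of -0.74 (adjusted p = 0.0774). *Pola2* was tight in control, from 100 to 103.9, and spread in KO, at 81.7, 45.6 and 60.9. The primase genes *Prim1* and *Prim2* had -0.39 and -0.22, with overlapping groups. Of the genes of polymerase epsilon, the catalytic *Pole* had -0.22, and *Pole3* and *Pole4*, histone-fold subunits, had -0.21 and -0.23. On the log2 scale, *Pole2* had the largest gap of all members between KO replicates 2 and 3, with 88.7, 36.2 and 28.7 in KO against 89.0, 86.3 and 61.4 in control (log2 fold change -0.77, limma adjusted p = 0.227). KO replicate 2 was at the control level while the other KO libraries were below the lowest control value.

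**Figure D3:**
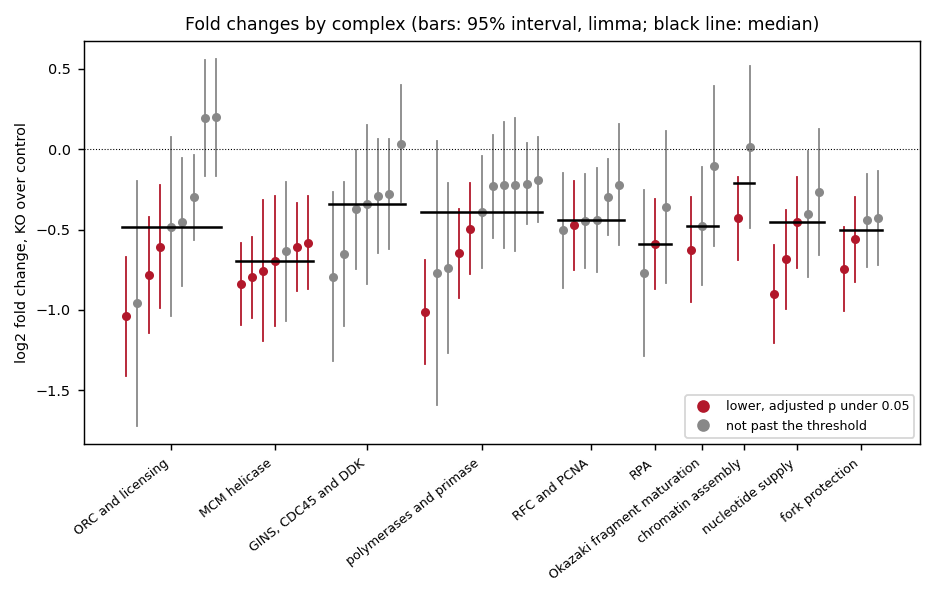
Log2 fold change of KO over control (y axis) for each member, grouped by complex and ordered within it, with 95% intervals from limma; red members passed an adjusted p-value under 0.05, and black lines are the medians of the complexes. The medians run from -0.69 for the MCM helicase to -0.21 for chromatin assembly, and red members occur in every complex except GINS, CDC45 and DDK.

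Of the 6 genes of the clamp and its loader, 1 passed the threshold, *Rfc2* (log2 fold change -0.47, limma adjusted p = 0.0378), and 5 had an unadjusted p-value under 0.05. *Rfc1*, *Rfc3* and *Rfc4*, the other subunits without overlap, had log2 fold changes of -0.30, -0.45 and -0.44, with adjusted p-values of 0.106, 0.0548 and 0.0857 (limma). *Rfc5* had overlapping groups, with 1169.0, 1612.4 and 1994.0 in KO replicates 2, 2_2 and 3 around the control range of 1749.7 to 1887.0. *Pcna*, the clamp itself, had 661.7, 617.3 and 621.5 in control and 344.2, 507.9 and 508.6 in KO (log2 fold change -0.50, limma adjusted p = 0.0752). The pseudogene copy *Pcna-ps2*, which resembles it in sequence, was listed with 305.6, 277.9 and 244.1 in control and 139.9, 237.6 and 212.2 in KO. It had a log2 fold change of -0.52, and since the counting could have split reads between the pair, the level of *Pcna* is uncertain.

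RPA, the trimer that coats single-stranded DNA, had 1 of 3 genes called. *Rpa1*, the large subunit, fell from 875.5, 716.8 and 868.2 in control to 542.3, 530.3 and 555.1 in KO (log2 fold change -0.59, limma adjusted p = 0.0146). The KO libraries were close to each other and below all control libraries. *Rpa2* had 2702.6, 2887.6 and 3082.1 in control and 1461.3, 2701.5 and 2886.7 in KO, so that only KO replicate 2 was away from the control values (log2 fold change -0.36, limma adjusted p = 0.331). *Rpa3*, the small subunit, had 154.2, 187.2 and 101.4 in control and 84.5, 88.7 and 77.9 in KO (log2 fold change -0.77, limma adjusted p = 0.0616).

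Of the genes that finish Okazaki fragments, the short pieces of the lagging strand, 1 of 3 fell. *Lig1*, the ligase that seals them, had the highest level of all members per kilobase in both groups. Its normalized counts were 10916.8, 10619.9 and 11051.9 in control and 6412.3, 6160.5 and 8819.4 in KO (log2 fold change -0.63, limma adjusted p = 0.0235). Its groups were apart, with KO replicate 3 nearest to control. *Rnaseh2a*, a subunit of the nuclease that removes RNA from DNA, had a log2 fold change of -0.48 (limma adjusted p = 0.099). *Fen1*, the flap nuclease, shares 78.8% of its exon bases with *Gm10143* on the other strand, and the recovered reads of the pair were nearly the same in every library, 249 and 250 in control replicate 1 and 154 and 160 in control replicate 2, so that its value (log2 fold change -0.10) cannot be assigned to either gene. Without *Fen1* and *Gins2*, 21 of 55 members were called lower, with a median of -0.47.

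CAF-1 deposits histones behind the fork, and 1 of its 2 listed subunits fell. *Chaf1a* had 791.0, 753.3 and 706.8 in control and 542.3, 544.9 and 582.0 in KO (log2 fold change -0.43, limma adjusted p = 0.0433, called in 8 of the 17 alternative fits). *Chaf1b* had 245.0, 256.0 and 261.4 in control and 166.9, 315.9 and 319.6 in KO, with KO replicate 2 below and the other KO libraries above every control library (log2 fold change 0.01, 95% interval -0.49 to 0.52, limma adjusted p = 0.979). Its mean hid values on both sides of control. The difference between the subunits was not tested.

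Of the 5 genes that supply deoxynucleotides, 3 fell. *Dut*, the dUTPase that keeps uracil out of DNA, had 900.3, 861.6 and 994.9 normalized counts in control and 576.2, 475.2 and 431.6 in KO. The mean went from 918.9 ± 68.6 (SD, n = 3) to 494.3 ± 74.2 (SD, n = 3), with -0.90 as log2 fold change (standard error 0.14, limma adjusted p = 0.00283), and it passed in all 17 alternative fits. *Rrm1* and *Rrm2*, the large and small subunits of ribonucleotide reductase, had log2 fold changes of -0.45 and -0.69, with adjusted p-values of 0.0482 and 0.0119 (limma). *Rrm1* was called in 8 and *Rrm2* in 15 of the 17. *Tk1*, the salvage kinase of S phase, had -0.40 without overlap (adjusted p = 0.18, limma), and *Tyms*, which makes dTMP, had -0.27 with overlap.

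In all 4 fork protection genes every KO library lay below every control library (against 15.5% of all tested genes), and 2 of them fell. *Timeless* had the tightest groups of the 6 members that passed everywhere, with 642.4, 670.0 and 657.5 in control and 383.0, 382.2 and 410.1 in KO (log2 fold change -0.74, standard error 0.12, limma adjusted p = 0.00351). *Clspn*, claspin, which relays stalled forks to the checkpoint kinase CHK1, had 1004.0, 1022.5 and 990.9 in control and 707.1, 728.3 and 614.2 in KO (log2 fold change -0.56, limma adjusted p = 0.0137). *Tipin*, the partner of *Timeless*, and *Wdhd1*, which links helicase and polymerase alpha, had log2 fold changes of -0.44 and -0.43 with adjusted p-values of 0.0565 and 0.0639 (limma).

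The KO libraries did not rank alike in all members. Between KO replicates 2 and 3, 8 members were at least 1.5-fold lower in replicate 3, namely *Pole2*, *Fen1*, *Gins2*, *Cdc45*, *Mcm4*, *Mcm6*, *Orc6* and *Dbf4*. Another 5 were at least 1.5-fold higher there, namely *Rpa2*, *Chaf1b*, *Mcm7*, *Rfc5* and *Orc1*. These are 14% and 8.77% of the members, against 14.3% and 13.2% of all tested genes, so that such gaps were no more frequent among the members. Without *Fen1* and *Gins2*, whose reads cannot be assigned, the first count was 6. The SD of the log2 values was larger in KO than in control for 42 of the 57 members, with medians of 0.20 and 0.11. Over all tested genes this held for 65.5%, with medians of 0.25 and 0.18.

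Per kilobase of the longest coding transcript (GENCODE M1, mm9), the control level of the members ran from 23.8 normalized counts for *Orc1* to 3431 for *Lig1*. The ring subunits were not level with each other, from 170.1 for *Mcm4* and 194.9 for *Mcm2* to 901.5 for *Mcm3* and 1178 for *Mcm7*. In KO the same genes were at 107.6, 127.8, 518.5 and 717.7. Which annotation was used for the counts is not given in the sources used here, so these levels rest on transcript lengths that may differ from the counted ones. Of the members called lower, *Mcm7*, *Lig1*, *Chaf1a* and *Timeless* share up to 7.25%, 5.08%, 5.06% and 1.85% of their exon bases with a gene on the other strand, and the use of strand in counting is not given either.

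Other genes of the pathway, in 6 lists chosen by role, were also mostly lower in KO, with 55 fold changes below 0 and 9 above. Of 64 tested genes, 18 fell (28.1%, against 5.22% of all tested genes) and 0 rose (against 4.74%). Their median log2 fold change was -0.38. With no adjustment (limma p under 0.05), 32 were lower and 1 was higher, against 1965 and 1813 of the 14840 tested genes. The higher gene, *Rad17*, named after its value was seen, had no overlap (log2 fold change 0.43, limma adjusted p = 0.0583). The count of 18 also depended on single libraries. It was 3 without control replicate 1, 8 without control replicate 1_1, 4 without control replicate 2 and 8 without KO replicate 2_2. With control 1 and 1_1 or both pairs averaged it was 7 and 9, and without KO replicate 2 it was 24. The share of all tested genes called lower was 8.14% without KO replicate 2 and between 1.68% and 2.92% in the rest of these fits. Without KO replicate 3, 14 fell and *Rad17* rose. Of 11 genes for chromatin behind the fork, 4 fell. These were *Nasp*, a histone chaperone, *Uhrf1* and *Dnmt1*, which keep DNA methylation through replication, and *Ssrp1*, a subunit of the chaperone FACT, with log2 fold changes of -0.88, -0.74, -0.68 and -0.54.

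Of 15 other genes for nucleotides, 5 fell. *Shmt1*, of folate metabolism, *Gart*, of purine synthesis, *Umps*, of pyrimidine synthesis, and *Dctpp1* and *Samhd1*, which break down dCTP and dNTPs, had log2 fold changes of -0.95, -0.94, -0.74, -0.65 and -0.46. Of 9 S phase checkpoint genes 3 fell, namely *Chek1*, the kinase CHK1, at -0.71, and *Rad9a* and *Rad1*, parts of the checkpoint clamp, at -0.59 and -0.85. The median of that list was -0.10. Of 12 other initiation factors 3 fell (*Mtbp* at -0.52, *Dtl* at -0.52 and *Rif1* at -0.43), of 9 clamp and polymerase genes 2 (*Pclaf*, a PCNA-binding protein, at -0.49 and *Atad5*, an unloader of the clamp, at -0.46), and of 8 maturation and topoisomerase genes 1 (*Exo1*, an exonuclease, at -0.86).

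Outside nuclear replication, 0 of 11 genes of mitochondrial DNA replication were called by limma, against 5.22% of all tested genes called lower. At an unadjusted p-value under 0.05, 4 were lower and 0 higher, against 1965 and 1813 of the 14840 tested genes. The median of these 11 genes was -0.21. Without overlap, 5 were lower in KO (45.5%, against 15.5% of all tested genes) and 1 was higher (against 14.7%). Of 18 genes of G2 and mitosis 1 fell (5.56%, near the 5.22% of all tested genes). It was *Cdc20*, which activates the anaphase-promoting complex (log2 fold change -0.81, limma adjusted p = 0.00666). The median of the list was -0.21, with 6 genes lower and 0 higher before adjustment (limma p under 0.05). The fold change was below 0 for 16 of the 18 (88.9%, against 50.1% of all tested genes). Without overlap, 5 were lower (27.8%, against 15.5%) and 0 higher.

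**Figure D4:**
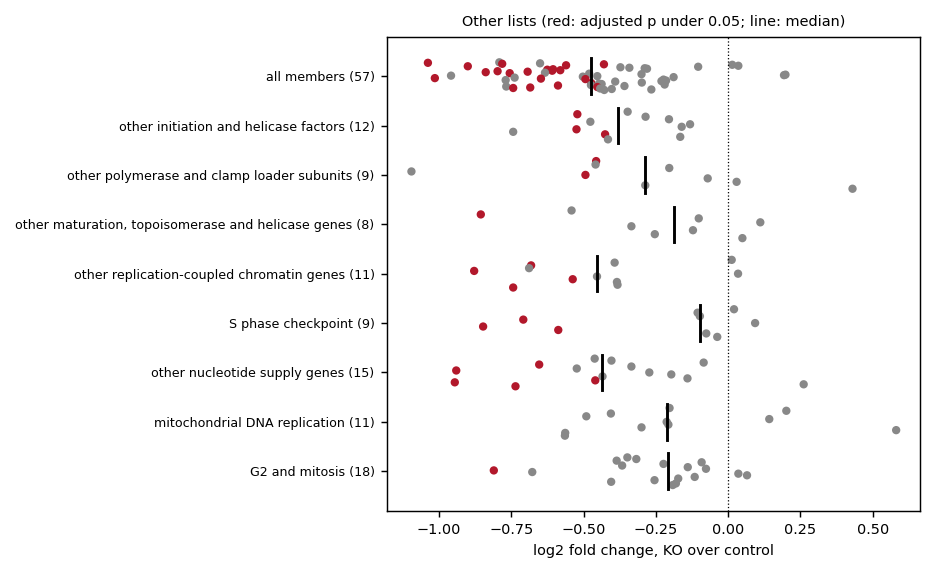
Log2 fold change of KO over control (x axis) for the 57 members and for 8 other lists, with the number of tested genes in brackets; red points passed a limma adjusted p-value under 0.05 and black bars are medians. The members' median of -0.47 and that of the chromatin genes of -0.45 lie farthest to the left, and the S phase checkpoint genes split into 3 low genes and 6 near 0.

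The E2F words were found in 18 of the 58 promoters of the members (31%), against 744 of 32851 promoters of the reference (2.26%). Counted by gene, this was 17 of 48 members (35.4%) against 2.6% of all genes with a promoter and 4.86% of the tested genes with one. There were 23 matches, 16 of them within 100 bases of the start, from 165 bases before it to 40 after it. TTTCCCGC was matched 9 times and TTTGGCGC and TTTCGCGC 7 times each, and TTTGCCGC was not among the matches. The plain word CCAAT, searched alike, was in 48.3% of the members' promoters and 37.4% of all. A match is only a run of letters and no measure of a bound factor.

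Promoters with and without a word occurred on both sides of the threshold. Of the members called lower, 9 of 18 with a promoter held a word, and of those not called 8 of 30 (26.7%). *Dut* and *Timeless*, called in every fit, held none in this window, and *Orc3*, at a log2 fold change of 0.20, held 1. Among all tested genes, a word was in 8.13% of those called lower, in 4.78% of those not called and in 2.55% of those called higher. Without the members, the first share was 6.65%.

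**Figure D5:**
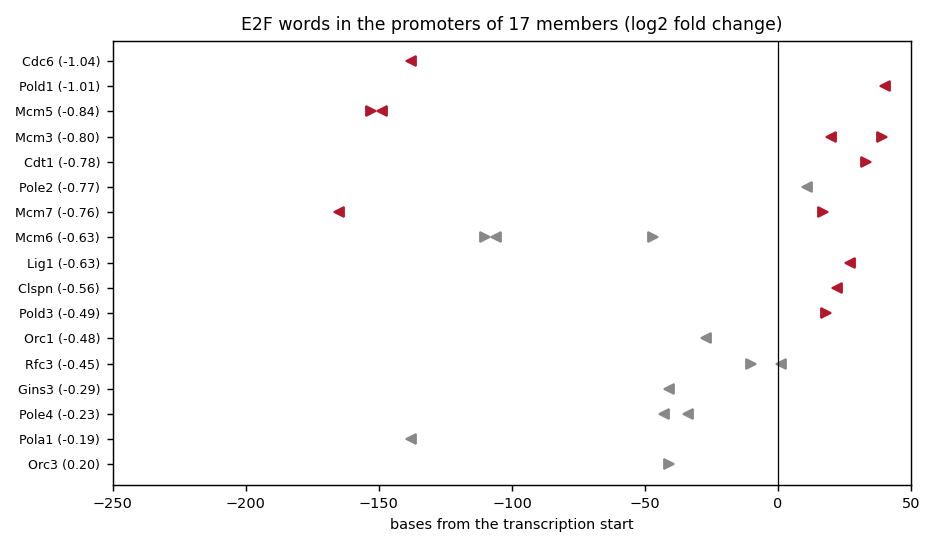
Position of each E2F word relative to the transcription start (x axis, in bases) in the 17 members that hold one, ordered by log2 fold change, which is given in brackets. Arrows give the strand of the word, Pole4 shows its only match at its distance from each of 2 annotated starts, and red marks members with a limma adjusted p-value under 0.05. Red and grey genes both hold words near the start.

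Some markers of the astrocyte and oligodendrocyte lineage lists were higher in KO. Of 7 tested astrocyte markers, of 8 listed, 4 were higher in KO, against 4.74% of all tested genes called higher. The largest change was in *S100b* (log2 fold change 3.10, limma adjusted p = 7.39e-07). *Aqp4*, at 1.64 (limma adjusted p = 0.0228), was low, with 8.78 to 14.67 normalized counts in control and 28.65 to 56.82 in KO. It was called in 11 of the 16 alternative fits that held it. The summed level of the list was 6897.4 to 8067.2 in control and 12942.3 to 16505.0 in KO. The larger part of that sum was *Sox9*, also called higher, at 3786.4 to 4655.8 in control and 7352.1 to 10100.0 in KO. *Aldh1l1*, named after its values were seen, lay below control in every KO library, at 14.7 to 19.0 in control and 2.58 to 9.0 in KO (log2 fold change -1.65, limma adjusted p = 0.065). *Gfap* was at or near 0, with at most 10.3 normalized counts in a library. Of the oligodendrocyte lineage list, with 6 of 8 markers tested, 3 were higher, against 4.74% of all tested genes. *Pdgfra*, *Olig2* and *Cspg4* had log2 fold changes of 0.86, 0.71 and 0.64, with adjusted p-values of 0.0136, 0.00747 and 0.0285 (limma). They were called in 15, 17 and 12 of the 17 alternative fits. The summed level of the list was 12487.9 to 14404.1 in control and 17235.9 to 19638.5 in KO. The myelin gene *Mog* was at most 4.39.

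Of 10 NSC markers only *Nes*, an intermediate filament of progenitors, fell (log2 fold change -0.85), and 0 rose past the adjusted threshold. Before adjustment (limma p under 0.05), 2 were lower and 2 higher, against 1965 and 1813 of the 14840 tested genes. Every KO library lay below every control library for 2 markers (20%, near the 15.5% of all tested genes). It lay above for 3 of the 10 (against 14.7%). A sum therefore joins genes on both sides of control. The summed level of that list was 39756.0 to 43797.6 in control and 40662.8 to 42586.5 in KO. Of 6 tested neuron markers, of 11 listed, limma called 0, with 0 at an unadjusted p-value under 0.05, and the summed level was 9348.5 to 9574.0 in control and 10175.9 to 11447.3 in KO. Nearly all of that sum was *Map2*, named after its values were seen, at 9123.7 to 9312.2 in control and 9902.8 to 11154.6 in KO. *Neurod6* and *Stmn2* were at 0 in all libraries. *Tmem119* of microglia, *Cdh5* and *Cldn5* of endothelium and *Pdgfrb* and *Col1a2* of mural cells and fibroblasts were also at 0 in all 6. In each of these 3 lists 1 gene passed the filter. The mural list, where that gene was *Cspg4* again, had a summed level of 218.7 to 267.0 in control and 328.0 to 438.7 in KO, the microglia list of 163.8 to 206.5 and 166.9 to 273.8, and the endothelial list of 26.7 to 40.4 and 14.3 to 19.4. The part of the glial markers in the lower replication genes was not tested.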

How the data were processed

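RNA-seq values of 6 libraries of NSCs, 3 control and 3 KO, were mapped to groups from the labels. The authors prepared the libraries with the TruSeq RNA Library Prep Kit v2. The methods name TopHat with mm9 and mm10, and the submitters' processing notes name STAR 2.7, mm10 and DESeq2; the read counter, its use of strand and the annotation are not given in the sources used here. The authors deposited normalized counts per gene and library, a signal obtained by dividing counts by 1 size factor per library. The deposited log2 fold changes, standard errors, test statistics and p-values of the authors' own comparison were not used. The table has 53379 rows, 873 of them without a gene name; 1 row lacks the value of a library and was not used.

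Whole reads were recovered for 100% of the values (within 0.1 of a whole number). Tests used limma 3.58.1 in R 4.3.3 (lmFit, then eBayes with trend) after log2(normalized count + 1), with Benjamini-Hochberg adjustment over 14840 genes and a threshold of 0.05; called means past it. The test was checked on simulated data. Alternatives were edgeR 4.0.16 (quasi-likelihood test) and DESeq2 1.42.0, both run with the whole reads, 0.5 or 5 as pseudocount, no filter, a mean of at least 50, TMM and total count scaling, averaging of like-numbered libraries, a threshold of 0.1 and leaving out each library. The 17 alternative fits are these without the threshold of 0.1. An exact permutation test of 3 against 3 cannot go below p = 0.1. The members and all lists were chosen with earlier results of these data known. Any member could be named; of each other list, at most 5 called genes with the largest changes and, for cell types, markers at or near 0. Promoters came from RefSeq (GRCm38.p6) and exon overlaps and transcript lengths from GENCODE M1 (mm9).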

Additional observations from a re-analysis of the deposited data

How the results depend on the processing

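The count of all genes called, 1478, was 660 with control 1 and 1_1 averaged, 885 with both pairs averaged, 2380 with the threshold at 0.1, and, leaving out 1 library, between 558 (control replicate 1 out) and 2396 (KO replicate 2 out). The count of members called lower, 21, was 10, 12 and 32 in the first 3 of these settings and from 6 to 30 with the same libraries left out; in the others it ran from 17 (total count scaling) to 26 (DESeq2). No member was called higher in any setting, the members without overlap numbered 40 to 45, and the median ran from -0.52 to -0.45. The sign of 3 members near 0 changed. The log2 fold change of Dbf4 was -0.049 with KO 2 and 2_2 averaged, -0.064 with both pairs averaged, and from -0.130 to 0.210 with 1 library left out. The log2 fold change of Fen1 ran from -0.314 to 0.168 and the log2 fold change of Chaf1b from -0.145 to 0.322 with 1 library left out. The causes were not tested. No paired analysis was possible because the groups share only 1 replicate number. Leaving out a library also leaves fewer samples to test. The depth was higher in KO, and members with the fewest reads (Pole2, Orc5, Orc1) have the widest error.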
